A study of Oreochromis niloticus with 16 samples.

Results

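miR-202 of the Nile tilapia (Oreochromis niloticus) was followed through 16 small RNA libraries by both of its mature arms, miR-202-5p and miR-202-3p. The arms were found by name, and they are 2 of the 734 entries in the files, an entry being an arm of a precursor locus. Both come from a single locus, mir-202, so no read was shared with another copy, and the divided count, in which a read is split over the loci it matches, equalled the whole-number count in all 16 libraries. The fish were of the Chitralada strain. Development was covered by whole embryos of 2, 3, 4 and 5 days post-fertilization (dpf) and by larvae of 10 dpf. The adults were 6 months old by the study's methods, although its example of a database search gives a higher age for male white muscle. White muscle, red muscle and brain were each taken from a female and a male, ovary and testis stood for the gonads, the heart was female, and eye and liver were of mixed sex by the study's methods, although the title of the liver library begins with the letter that marks females in other titles. There was 1 library for each condition.

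A miRNA hairpin is cut by Dicer into a duplex, and either arm can be loaded into Argonaute, where it represses mRNAs that pair with its seed. miR-202 is known as a gonad miRNA of vertebrates. It has been placed in Sertoli cells and germ cells of the mouse testis, in germ plasm and germ cells of the zebrafish, and in the ovary of the medaka, where its loss impairs egg production. Which cells of a gonad carry the reads cannot be read from whole organs, and in such bulk samples fewer cells of a type and less RNA per cell cannot be told apart.

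Levels are counts per 1000000 of the divided reads of a library (CPM). The divided totals ran from 833147 reads at 10 dpf to 11517367 in male red muscle, and ovary with 941828 and testis with 1308075 reads were among the shallower libraries. Intervals are at 95%, exact Poisson for levels and Wilson for arm shares unless called exact. Those of fold differences are conditional binomial, and that of the arm odds rests on a normal approximation of the log odds. As reads carry no molecular identifiers, all of them cover counting error only. A library without a read was given a floor of 3 counts, worth 0.260 CPM in male red muscle and 3.60 CPM at 10 dpf. Some defining miRNAs were high in the tissues labelled for them. miR-206-3p of muscle had 75619 and 75831 CPM in the white muscles. miR-124a-3p of neurons had 30369 and 14668 CPM in the female and male brains, and miR-122-5p of hepatocytes had 450152 CPM in liver. The check was weaker for red muscle, where miR-206-3p had 4292 and 3780 CPM, below 23308 CPM at 5 dpf. miR-124a-3p also had 15998 CPM in eye, above male brain. The titles of the female white and red muscle libraries carry a common number, as do those of female brain and ovary. No fit held a term for these numbers, so the tests treated all libraries as independent. A p-value therefore reflects no more than the scatter left among the libraries of its own fit.

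Both arms of miR-202 were gonad miRNAs in these libraries. miR-202-5p had 730 reads in ovary, or 775 CPM (720 to 833), and 15646 reads in testis, or 11961 CPM (11774 to 12150). It was the miRNA at place 51 of 334 detected in ovary and at place 18 of 394 in testis, where it made up 1.20% of the library. miR-202-3p had 367 reads in ovary, or 390 CPM (351 to 432), and 295 reads in testis, or 226 CPM (201 to 253), at places 64 and 88. The detected miRNAs of these libraries had medians of 16.5 CPM in ovary and 10.7 CPM in testis, so both arms lay far above a typical miRNA of either gonad.

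Outside the gonads, miR-202-5p was low or not detected in every library. Male white muscle was highest with 109 reads, or 25.4 CPM (20.9 to 30.7), and female white muscle had 15 reads, or 4.23 CPM (2.37 to 6.98). Female brain had 1 read and male brain 4 reads, or 0.197 CPM (0.00498 to 1.10) and 0.591 CPM (0.161 to 1.51). Female and male red muscle, liver, heart and eye had 0 reads. In the female and male red muscle libraries, which are deep, the upper Poisson limits were 0.428 and 0.320 CPM. In liver and heart, which are shallow, they were 2.73 and 2.88 CPM, so a level like that of the brain could have been missed there.

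Fewer libraries outside the gonads had reads of miR-202-3p. Its only other reads were 2 in liver, or 1.48 CPM (0.179 to 5.35), and the remaining 13 libraries had 0 reads. This arm was also the scarcer in both gonads. At the arm ratio of testis, the 169 reads of miR-202-5p outside the gonads would come with 3.19 of miR-202-3p, and at that of ovary with 85.0. The 0 reads thus do not show that miR-202-3p was more strictly limited to the gonads. In liver, the reads of miR-202 were thus of the 3p arm alone, but 2 reads do not set a ratio of arms.

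**Figure D1:**
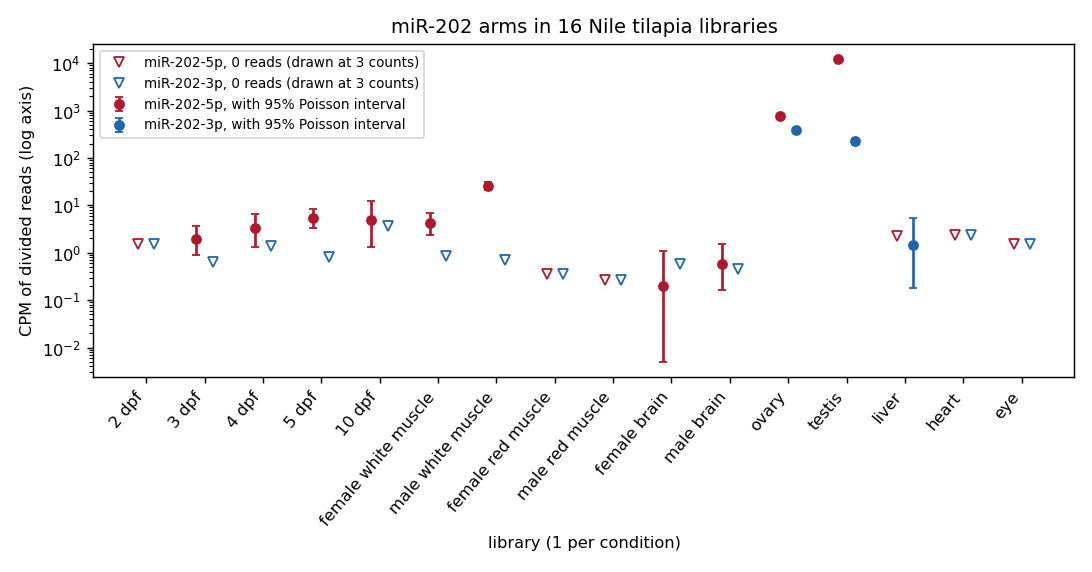
CPM of miR-202-5p (red) and miR-202-3p (blue) in each of 16 libraries, on a log axis. Filled points carry exact Poisson 95% intervals, and open triangles mark libraries with 0 reads, drawn at the floor of 3 counts. Both arms peak in ovary and testis, with miR-202-5p at 775 and 11961 CPM and the next library, male white muscle, at 25.4 CPM.

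Ordered by level, miR-202-5p ran from testis to ovary, male white muscle, 5 dpf, 10 dpf, female white muscle, 4 dpf, 3 dpf, male brain and female brain, followed by the 6 libraries without a read. Testis, ovary and male white muscle had intervals that overlapped none of the other libraries, whereas each neighbouring pair from 5 dpf to female brain overlapped, so these counts do not order neighbours. Libraries farther apart in this row could differ, as 5 dpf and female white muscle lay above male brain without overlap. Ovary lay 30.5-fold above male white muscle (24.9 to 37.6) and testis 470-fold (390 to 573). For miR-202-3p the order was ovary, testis and liver, and ovary lay 263-fold (72.3 to 2180) and testis 152-fold (41.8 to 1263) above the 2 reads of liver.

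For the libraries without a read, the gonads were set against the floor of each library. In ovary, miR-202-5p was 331-fold above the floor of heart and 2976-fold above that of male red muscle. In testis it was 5107-fold above the floor of heart and 45920-fold above that of male red muscle. For miR-202-3p, the lower gonad, testis, was 62.6-fold above the floor of 10 dpf and 866-fold above that of male red muscle. The floor of 3 counts lies below the upper Poisson limit of 0 reads, at 2.34 against 2.88 CPM in heart. These ratios are therefore not lower bounds, and they follow the depth of the empty library as much as the level in the gonad.

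Of all 16545 reads of miR-202-5p, 16376 (99.0%) came from the gonads, as did 662 of the 664 reads of miR-202-3p (99.7%). Counted as CPM, which gives each library the same weight, ovary and testis held 99.64% of the summed level of miR-202-5p and 99.76% of that of miR-202-3p. Among 449 miRNAs that reached 10 reads in 2 or more libraries, these were the 2 largest gonad shares, and the median share was 3.83%. miR-202-3p entered this set through its reads in the gonads alone, so that its place follows in part from the filter. The next were miR-n760-5p with 92.5% and miR-n631-5p with 90.5%, both of which carry an n number in place of a family name. The latter had 2809 CPM in ovary and 0 reads in testis, so its share, unlike that of miR-202, rested on 1 gonad.

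**Figure D2:**
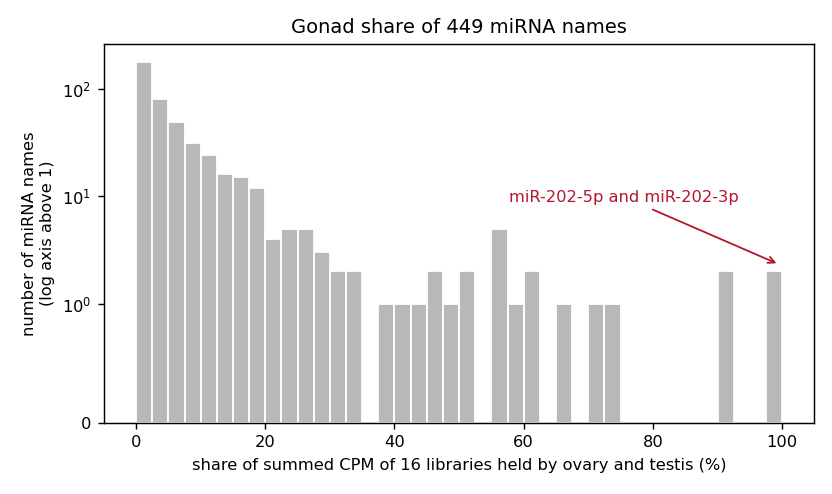
Number of miRNAs (vertical axis, log above 1) by the percentage of their summed CPM over 16 libraries that ovary and testis hold together, for 449 miRNAs. The arms of miR-202 form the last bar, at 99.64% and 99.76%, while the median miRNA lies at 3.83%.

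Few miRNAs had their 2 highest levels in the 2 gonads. Only 9 of 577 miRNAs (1.56%) had ovary and testis as their 2 highest libraries, and 5 of these had at least 10 reads in each gonad. For miR-202-3p the lower gonad stood 152-fold above the highest other library, and for miR-202-5p 30.5-fold. miR-145-3p followed at 2.55-fold, with 3692 CPM in ovary, 3605 CPM in testis and 1412 CPM at 10 dpf. miR-143-3p stood 1.52-fold and miR-146a-5p 1.36-fold above their highest other library. miR-143 and miR-145 are known as miRNAs of smooth muscle, and miR-146a as a miRNA of the immune response. These 3 were thus shared widely with other tissues, and the arms of miR-202 were not.

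The gonads were compared with the mean of the 6 other adult tissues, with ovary and testis as the 2 libraries of gonad, by the quasi-likelihood test of edgeR with Benjamini-Hochberg adjustment. As tissue was a factor, the scatter of this fit came from ovary against testis and from the sexes of white muscle, red muscle and brain. Differences among the other tissues did not enter it. Both arms were higher in the gonads, in a comparison where 60 of 511 entries (11.7%) were called higher and 11 lower. miR-202-5p had a log2 fold change of 15.21 (SE 1.28, adjusted p = 1.05e-05), the largest among the miRNAs called higher. The third largest of these was that of miR-202-3p, at 12.17 (SE 1.03, adjusted p = 1.38e-05). Between them came miR-n631-5p at 12.20 (SE 1.97, adjusted p = 0.000979). As 5 of the 9 other adult libraries had 0 reads of miR-202-5p and 8 had 0 of miR-202-3p, these fitted changes depend on the prior count and are not bounds. miR-202-3p also passed the filter of 10 reads only through the gonads, and so had to differ.

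The call of miR-202-5p depends on how the other tissues are treated. When the 9 other adult libraries were taken as a single group without tissue, its log2 fold change was 10.29 with an adjusted p of 0.118 by edgeR, and miR-202-3p, at 11.23 and an adjusted p of 0.00294, was the 1 entry called higher, again after passing the filter through the gonads alone. With each of the other 15 settings, leave-outs included, miR-202-5p was called higher. Its log2 fold change was 12.26 without testis and 16.17 without ovary, and in these fits the remaining gonad library is assumed to vary like the libraries of the other tissues. In a two-sided exact permutation test of log2(CPM + 1) over 2 gonad and 9 other adult libraries, p was 0.0182 for each arm, the smallest that this design allows. As miR-202 was chosen as a miRNA of the gonads, this p is not independent evidence. Both gonads lay above all 9 libraries for both arms, with means of 11.57 against 0.89 for miR-202-5p and of 8.22 against 0.15 for miR-202-3p.

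Between the gonads, the arms differed in opposite directions. miR-202-5p was 15.4-fold higher in testis than in ovary (14.3 to 16.6), whereas miR-202-3p was 1.73-fold higher in ovary than in testis (1.48 to 2.02). With both arms summed, the hairpin gave 1097 reads in ovary and 15941 in testis, a level 10.5-fold higher in testis (9.84 to 11.1). With 1 library of each gonad there is no replicate check, and the intervals hold for these libraries alone.

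Many miRNAs differed between the gonads, but fewer differed as far as miR-202-5p. Of 240 miRNAs with at least 10 reads in a gonad, 29.6% were at least 4 times higher in testis and 33.3% were at least 1.5 times higher in ovary, and 27 lay as far to the testis side as miR-202-5p, itself included. Those 27 included miR-30c-5p, with 106 CPM in ovary and 14355 CPM in testis, miR-125b-5p, with 270 and 15914 CPM, and miR-192-5p, with 213 and 4082 CPM. Others of the 27, such as miR-9-5p at 0 CPM and miR-194a-5p at 1.06 CPM, lay below the floor of 3 counts in ovary. The size of their difference depends on the 1 CPM added to each level. On the ovary side, 77 lay as far as miR-202-3p. A difference like that of miR-202-3p was thus common among these miRNAs. A difference as large as that of miR-202-5p was found in 27 of 240, itself included, and some of these lay below the floor in ovary. The median miRNA leaned to testis by 0.47 on the log2 scale. When TMM factors, which correct for composition, were used instead of the library total, that lean fell to 0.03, the difference of miR-202-5p became 11.01-fold and that of miR-202-3p 2.42-fold, both in the direction given above.

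**Figure D3:**
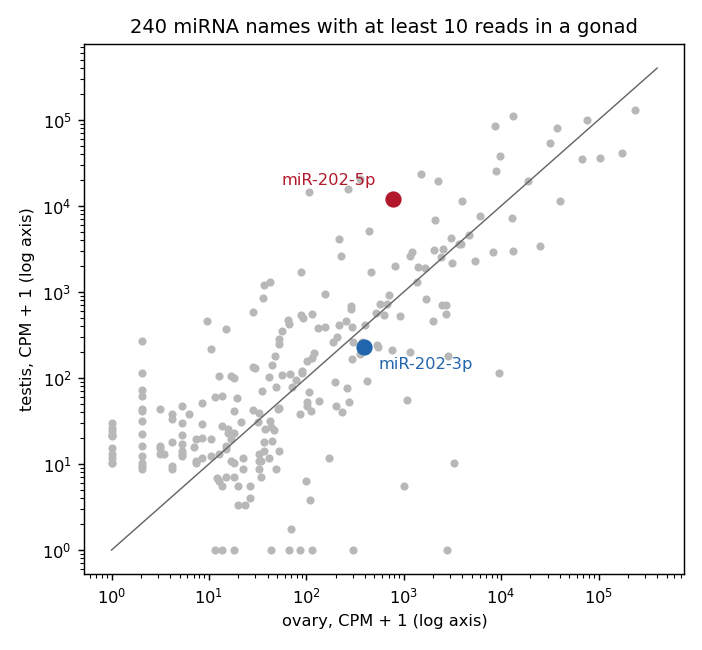
CPM + 1 in testis against ovary, both on log axes, for 240 miRNAs with at least 10 reads in a gonad; the line marks equal levels. miR-202-5p lies 15.4-fold to the testis side and miR-202-3p 1.73-fold to the ovary side, both within the cloud of the other miRNAs.

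The balance of the arms changed with these differences. miR-202-5p was 66.5% of the miR-202 reads in ovary (63.7 to 69.3, Wilson) and 98.1% in testis (97.9 to 98.3). In other words, there were 1.99 reads of the 5p arm for each read of the 3p arm in ovary and 53.0 in testis, and the odds of the 5p arm were 26.7 times higher in testis (22.5 to 31.6). The 5p arm was the major arm in both gonads, so the arm did not switch. As both arms are counted in the same library, this ratio does not depend on the scaling of the library, and since divided and whole-number counts were equal, it was the same from either.

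Among 127 hairpins whose arms together reached 50 reads in each gonad, mir-202 had the change of arm odds at place 10 by size, and the median absolute log2 change was 1.34 against 4.74 for mir-202. In all, 15 hairpins (11.8%) differed at least 16 times, and some of them had an arm without reads. With at least 3 reads of each arm in both gonads, an alternative chosen after the data were seen, mir-202 was at place 6 of 60 hairpins, and 7 (11.7%) differed at least 16 times. mir-145, which gives the smooth muscle miRNAs above, moved from 8.76% of the 5p arm in ovary to 85.2% in testis and so did switch its major arm. Copies of mir-125b took 3 of the 5 places ahead of mir-202, and as they share reads they are not independent of each other.

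**Figure D4:**
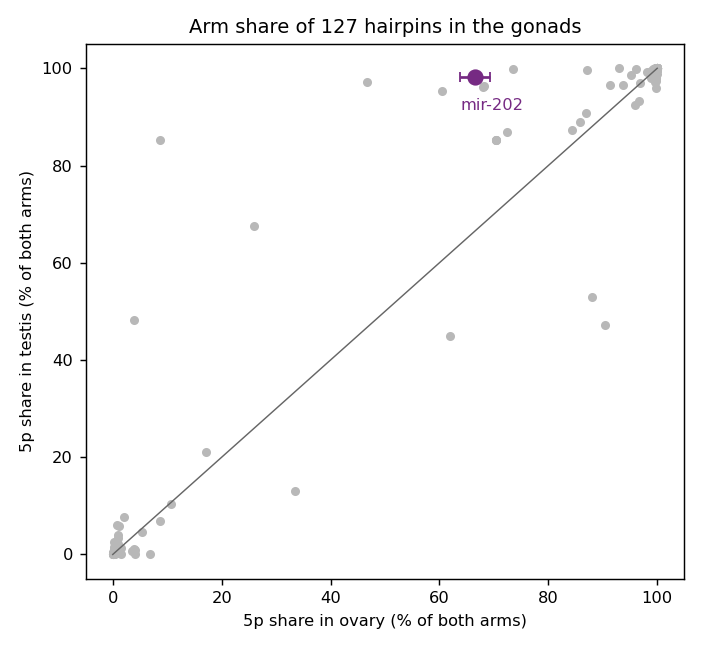
Share of the 5p arm, in % of the reads of both arms, in testis against ovary for 127 hairpins; the line marks equal shares. mir-202 (purple, with Wilson 95% intervals) lies at 66.5% in ovary and 98.1% in testis, while most hairpins lie in the corners where the same arm dominates in both gonads.

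Outside the gonads the reads were of the 5p arm almost alone. The 14 other libraries gave 169 reads of miR-202-5p and 2 of miR-202-3p. In male white muscle, all 109 reads were of the 5p arm, a share of 100% with an exact lower limit of 96.7%. At the arm ratio of ovary, 109 reads of the 5p arm would come with 54.8 reads of the 3p arm, and at the ratio of testis with 2.06. The arm balance in male white muscle was therefore far from that of ovary, while 0 reads of the 3p arm cannot be told from the balance of testis at this depth.

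In white muscle, miR-202-5p was 6.01-fold higher in the male than in the female library (3.49 to 11.1). miRNAs of other tissues differed between the same libraries in either direction. miR-192-5p, a miRNA of liver, gut and kidney chosen after its values were seen, had 18.4 CPM in female and 484 CPM in male muscle, and the liver list, which is both arms of miR-122, summed to 28.5 and 95.4 CPM. The neural list summed to 871 and 338 CPM. The epithelial list, at 2836 and 2550 CPM, and the blood cell list, at 2538 and 2394 CPM, differed little. The endothelial and smooth muscle list summed to 30500 and 26784 CPM, and the retina list to 2453 and 3420 CPM. Their part in the level of miR-202-5p was not tested. In brain, the male library lay 3.00-fold above the female (0.297 to 148), which at 4 reads against 1 sets no direction.

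Over white muscle, red muscle and brain together, miR-202-5p was not called by sex. With tissue as a block, its log2 fold change of female against male was -2.16 (SE 1.36, adjusted p = 0.993, edgeR), and 0% of 494 entries were called in either direction by edgeR or by DESeq2. At an unadjusted p under 0.05 there were 5 entries with edgeR and 6 with DESeq2. Brain against the mean of the muscles was not called either, at a log2 fold change of -0.75 (SE 2.08, adjusted p = 0.781, edgeR), in a comparison where 32% of 494 entries were higher and 28.1% lower in brain. Without male brain that value was 0.25 (adjusted p = 0.731, edgeR). In these libraries miR-202-5p passed the filter through the female and male white muscle alone, at 4.23 and 25.4 CPM. With 0 reads in red muscle, its mean over the muscles depends on the prior count. Female and male brain, at 0.197 and 0.591 CPM, were both below either white muscle. miR-202-3p had 0 reads in all 6 of these libraries and was not tested.

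During development, miR-202-5p was first seen at 3 dpf, with 9 reads, or 1.95 CPM (0.892 to 3.70), after 0 reads at 2 dpf. The embryos of 4 dpf had 7 reads, or 3.25 CPM (1.31 to 6.69), and those of 5 dpf had 20, or 5.42 CPM (3.31 to 8.37). Larvae of 10 dpf had 4 reads, or 4.80 CPM (1.31 to 12.3). The floor at 2 dpf was 1.51 CPM, within the interval of 3 dpf. The level at 5 dpf was 2.78-fold that at 3 dpf (1.21 to 6.93) by counting error, although their Poisson intervals overlapped. It was 1.67-fold that at 4 dpf (0.678 to 4.67). The level at 10 dpf was 0.886-fold that at 5 dpf (0.220 to 2.64). miR-202-3p had 0 reads at all 5 stages.

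Only 5 dpf had 10 reads, so miR-202-5p did not pass the filter for the trend over the stages. Without the filter its slope was 0.55 on the log2 scale for each doubling of age (SE 0.91, adjusted p = 0.785, edgeR), while 1.13% of 711 entries rose and 4.92% fell. A whole embryo holds its gonad precursors among all other cells, and the share of these cells in each library is not known from the labels.

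Other miRNAs linked to the germ line were looked for by name, namely miR-34b, miR-34c, miR-449, miR-430 and miR-427. miR-34 and miR-449 are known from multiciliated cells and the mouse testis, and miR-430 and miR-427 clear maternal mRNAs in zebrafish and Xenopus embryos. Of these, both arms of miR-449 were found in the files. miR-449-5p had 5 reads in ovary and 4 in testis, or 5.31 and 3.06 CPM, and its highest library was 5 dpf with 71 reads, or 19.2 CPM. It was called higher in the gonads than in the other adult tissues (log2 fold change 4.21, SE 1.15, adjusted p = 0.0248, edgeR). Yet female and male brain, at 2.36 and 2.51 CPM, were close to testis. miR-449-5p passed the filter only through these brain libraries, with 12 and 17 reads. With 0 reads in female white muscle, heart and eye, its fitted change depends on the prior count. miR-449-3p had 18 reads in all libraries and 0 in the gonads. The high level of miR-202 in both gonads was thus not shared by miR-449.

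The miRNAs whose profile was most like that of miR-202-5p were sought among 448 others by Pearson's r of log2(CPM + 1) over 16 libraries. Its partner arm came first, with r = 0.89, followed by miR-145-3p (0.73), miR-10a-3p (0.70), miR-143-5p (0.67), miR-146a-5p (0.66) and miR-n323-3p (0.66). Lower values were found for miR-n015-5p (0.59), miR-n886-5p (0.58), miR-143-3p (0.57) and miR-22a-3p (0.56). For miR-202-3p, the 4 most like after its partner were miR-n323-3p (0.77), miR-145-3p (0.71), miR-146a-5p (0.68) and miR-n015-5p (0.62). The 16 points include related tissues and differ in depth, and these values are a description.

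The choice of measure changed the most similar miRNAs. By Spearman's rho, which ranks the many libraries with few or 0 reads as well, the partner arm had 0.37 and place 88, and 2 of the 10 miRNAs were shared with the first choice. miR-10a-3p was high in testis at 32.1 CPM but had 3.19 CPM in ovary, below 12.5 CPM at 4 dpf. miR-143-5p likewise had 2631 CPM in testis, 224 CPM in ovary and 331 CPM at 10 dpf. Thus no other miRNA in this group stood apart in both gonads as the arms of miR-202 did.

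**Figure D5:**
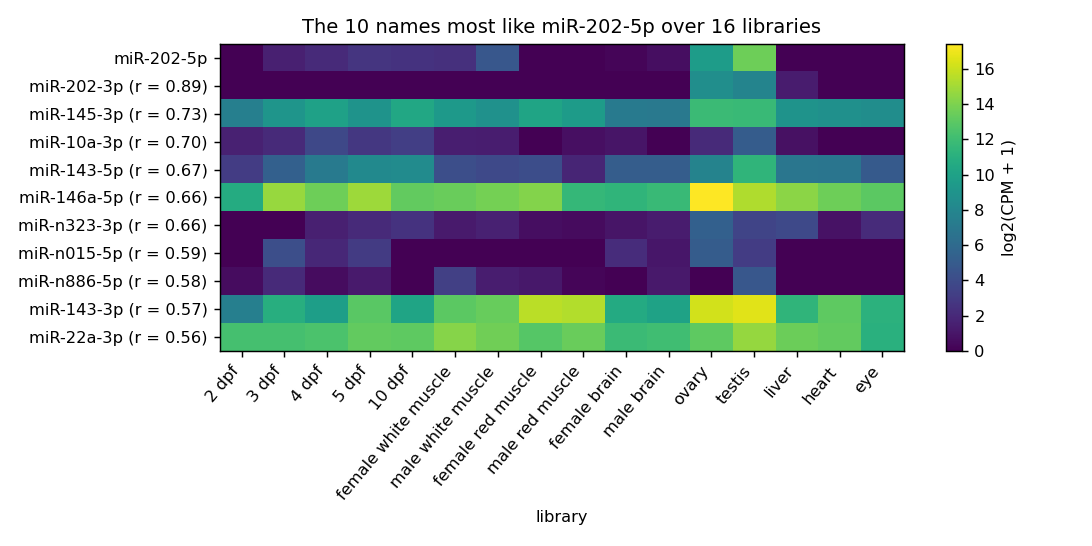
Level of miR-202-5p and of the 10 miRNAs most like it, as log2(CPM + 1) by color, in 16 libraries; Pearson's r with miR-202-5p follows each name. miR-202-3p (r = 0.89) is dark outside the gonads, whereas miR-145-3p (r = 0.73), miR-146a-5p (r = 0.66) and miR-143-3p (r = 0.57) have reads in every library.

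The gonad libraries also held miRNAs that mark other cell types, at levels that differed between ovary and testis. The 6 endothelial and smooth muscle miRNAs (miR-126, miR-143 and miR-145) summed to 118342 CPM in ovary and 207214 CPM in testis, against 6922 to 259942 CPM in the other adult libraries. The 11 epithelial miRNAs summed to 960 CPM in ovary and 6906 CPM in testis, against 39.9 to 3379 CPM elsewhere. The 10 blood cell miRNAs summed to 3116 and 1186 CPM, within the range of 791 to 20667 CPM of the other tissues. The 12 miRNAs of the retina list, which other sensory and epithelial cells also use, summed to 14060 and 5501 CPM, against 12.5 to 728805 CPM in the other adult libraries. Of the miRNAs tested, those called higher in the gonads were 4 of 6 of the endothelial and smooth muscle list and 5 of 6 of the retina list. They were 3 of 8 of the epithelial list, 3 of 27 of the neural list and 1 of 2 of the liver list. None was of the muscle list (0 of 10) or the blood cell list (0 of 9). Called lower were 2 of the muscle list and 1 each of the blood cell, epithelial and neural lists. Over all entries, 11.7% were called higher. That share counts every locus, whereas a list miRNA was taken at its locus with the smallest p, which can raise the list counts.

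miR-122-5p stood at 3317 CPM in ovary and 9.17 CPM in testis, while in the other adult libraries apart from liver it was at most 93.1 CPM. The muscle miRNAs summed to 2789 and 4010 CPM and the neural miRNAs to 476 and 1180 CPM, against at most 310649 and 92069 CPM in the tissues they mark. The part of these cell types in the difference of miR-202 between ovary and testis was not tested. The most abundant miRNAs of the gonads were miR-100-5p (239398 CPM), miR-146a-5p (174634 CPM) and let-7a-5p (104632 CPM) in ovary, and miR-100-5p (130857 CPM), miR-10a-5p (110788 CPM) and miR-143-3p (99399 CPM) in testis.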

How the data were processed

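For every library, the authors deposited a file of raw counts (whole numbers, a read counted at every locus it matches) and estimated counts (the read divided over its loci) for each arm of each locus, both without normalization. Libraries were made from Trizol RNA with the TruSeq small RNA kit and sequenced on the Illumina GAIIx. The submitters' notes name DESeq. The study placed precursors on the genome with PaTMan, while the aligner of the reads is not given in the sources at hand. Stages and tissues came from the labels, and sex from sample titles, file headers and Materials and Methods. Of 736 lines, 2 had no mature name and 0 reads and were left out.

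CPM was computed from divided counts, summed by mature name. Whole-number counts were tested in R 4.3.3 with edgeR 4.0.16 (TMM; limma 3.58.1) on entries that reached 10 reads in 2 or more of the libraries compared, and DESeq2 1.42.0 was an alternative. The threshold was an adjusted p under 0.05. Standard errors are the fold change divided by the square root of F. The tests were also run on simulated counts with known changes. These counts had no other tissue differences and no change as large as that of miR-202, so the run does not speak to its calls. Intervals of levels and fold differences came from scipy 1.17.1, those of arm shares from statsmodels 0.14.6 and that of the arm odds from numpy 2.4.6. Tables came from pandas 2.3.3 and numpy 2.4.6, and plots from matplotlib 3.10.9, under Python 3.11.15.

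Named miRNAs are both arms of miR-202, the 10 most like miR-202-5p, the 5 most like miR-202-3p, up to 6 with both gonads highest, the germ line list and the 3 most abundant of each gonad. Other names were added after their values were seen. The 9 marker lists rest on textbook knowledge. Members, lists and tests were chosen with earlier results of these data known.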

Additional observations from a re-analysis of the deposited data

How the results depend on the processing

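No paired analysis by replicate number was possible because each condition has 1 library, and the comparison by sex held tissue as a block. The gonad difference of miR-202-3p kept its direction and its call in all 14 settings that could be fitted, and ranged from 12.04 to 13.03 when 1 library was left out. Without ovary or without testis it did not pass the filter, and as it passes through the gonads alone, its calls say nothing about stability. That of miR-202-5p ranged from 14.82 to 15.73 when 1 of the 9 other libraries was left out and from 12.26 to 16.17 with the gonads included, and was lost only with 2 groups without tissue (10.29, adjusted p = 0.118 in edgeR). Entries called higher in the gonads were 112 without the filter and 1 with 2 groups without tissue, and 44 to 76 over the leave-outs. Entries called lower were 25 with DESeq2, 3 with library totals, 0 with 2 groups without tissue (edgeR), 4 with divided counts and 3 to 28 over the leave-outs, with 28 without liver and 27 without testis. At an unadjusted p under 0.05, the main comparison had 130 entries in edgeR and 129 in DESeq2. Library totals moved the median log2 fold change of all entries from -0.12 to 0.59.

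The change of miR-202-5p between brain and muscle ranged from -1.62 to 0.25 over the leave-outs and turned positive (0.25) without male brain. The change by sex ranged from -2.55 to -2.25. Neither could be fitted without a white muscle library. For testis over ovary, miR-202-5p was 16.8-fold with whole-number counts and 11.01-fold with TMM factors. It was 10.4-fold with the 3 most abundant miRNAs of each gonad left out of the totals. miR-202-3p was 2.42-fold and 2.57-fold higher in ovary with the last 2 of these. Hairpins with arm odds at least 16 times apart numbered 7 with at least 3 reads of each arm. Of the 10 miRNAs most like miR-202-5p, 2 were shared by Spearman's rho, 2 when all miRNAs with a read entered and 6 over 11 adult libraries. The cause of these changes was not tested. Depth limits the levels in liver, heart, eye, 2 dpf and 10 dpf, and 1 library for each condition limits every comparison.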
